A study of Canis lupus familiaris with 24 samples.

Results

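The DNA replication and S phase genes described here are 49 genes that copy the genome or switch on when a cell enters S phase. They were taken from a list of symbols and looked up by gene symbol in a table of RNA-seq counts. Of the 49 symbols, 43 were found, and all 43 had enough counts to be tested, out of 32704 genes in the table and 12466 tested. The 6 not found by symbol, GINS1, PRIM1, POLE2, E2F1, ASF1B and DNMT1, are not analysed here.

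Replication starts at origins that are bound by the origin recognition complex (ORC) in G1, when CDC6 and CDT1 load the ring-shaped MCM2-7 helicase onto DNA. In S phase the loaded helicase is activated by MCM10, CDC45 and the GINS complex, and polymerases tethered by the PCNA clamp copy both strands while ribonucleotide reductase and thymidylate synthase supply the nucleotides. Many of these genes are transcribed at the G1/S transition by E2F factors, and TGFb is known to hold many epithelial cells in G1.

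The cells were Madin-Darby canine kidney (MDCK) cells, a dog kidney epithelial line, in the sublines MDCK-II and MDCK-NBL2, sequenced as 24 stranded mRNA libraries in 8 groups of 3. Both sublines were sampled without treatment at day 0 and at day 4 and with TGFb, an inducer of epithelial-mesenchymal transition (EMT), at day 4. MDCK-NBL2 cells were also given TGFb for 4 days together with an siRNA, used to silence a transcript: siCTR as the control or siPRRX1, directed at the EMT transcription factor PRRX1. The labels name the untreated groups epithelial, MDCK-II with TGFb and MDCK-NBL2 with TGFb and siPRRX1 partial EMT, and MDCK-NBL2 with TGFb alone or with siCTR full EMT. Replicates carry the numbers 1 to 3 and no statement of whether they came from separate cultures, so a p-value here speaks of the scatter among libraries, which may be technical. Values are counts scaled to a common library size (CPM, defined with the processing), given in the order of replicates 1, 2 and 3. Log2 changes are given ± standard error (SE), and a gene is called higher or lower at an adjusted p under 0.05 in edgeR's quasi-likelihood test.

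Total counts ran from 6134929 to 27567296 per library. PRRX1 stood at 33.9, 7.35 and 3.88 CPM with siCTR and at 1.11, 0.339 and 0 CPM with siPRRX1, so the siPRRX1 libraries were all below the siCTR libraries, with a log2 difference of -4.64 ± 1.38 that did not pass (adjusted p = 0.16). The summed CPM of 8 epithelial and kidney tubule markers ran from 1380 to 3620 over all libraries, with the cadherin gene CDH16 at 0 in all 9 TGFb-treated MDCK-NBL2 libraries. Markers of leukocytes summed to at most 4.75 CPM and of fibroblasts to at most 48 CPM, the latter in TGFb-treated MDCK-II, while the 5 endothelial markers summed to 90.4 to 424 CPM. That sum was almost all FLT1, a VEGF receptor gene at 88.4 to 423 CPM and higher in every treated library of both lines than in any untreated one, with KDR at most at 8.62 CPM and PECAM1, CDH5 and TEK at or near 0. Their part in the results was not tested. Replicate 2 of untreated MDCK-NBL2 at day 4, by its label, stood apart from its group. On the first principal component it lay at -59.3, with its replicates at 4.85 and 20 and the TGFb-treated libraries of the line at -98.7, -89 and -84.1. In that library TGFBI, a TGFb-induced matrix gene, was at 1580 CPM against 0.325 and 0.229 in its replicates. Some results are given with and without this doubted library. A change or count against untreated MDCK-NBL2 at day 4 that is given only once includes it.

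Replication genes fell with TGFb in both lines, with larger log2 changes in MDCK-NBL2. Compared with day 0, 41 of the 43 genes were lower in TGFb-treated MDCK-II at day 4 and 43 of 43 in TGFb-treated MDCK-NBL2, where 20.6% and 25.4% of all genes tested were lower. None was higher, where 20.3% and 29.3% of all genes were. The median log2 change of the 43 genes was -1.33 in MDCK-II and -2.94 in MDCK-NBL2, against medians over all genes of 0.00 and 0.04. In these bulk libraries, fewer cells in S phase and less RNA of these genes per cell cannot be told apart.

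Set against the mean of its own line at day 0, the median gene stood at 35.9%, 38.5% and 41.6% in the 3 TGFb-treated MDCK-II libraries and at 10.8%, 13% and 15.9% in the 3 treated MDCK-NBL2 libraries. No gene reached its day 0 mean in any TGFb-treated library of either line. In untreated libraries at day 4 it stood at 47.7%, 80.6% and 78% in MDCK-II, and 50.9%, 18.2% and 99.4% in MDCK-NBL2, where the low value belongs to replicate 2. Replicates were closest at day 0, with a median coefficient of variation over the genes of 5.2% in MDCK-II and 8.2% in MDCK-NBL2. It was 27.8% and 70.6% in untreated cells at day 4 and 11.8% and 20.7% with TGFb.

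**Figure D1:**
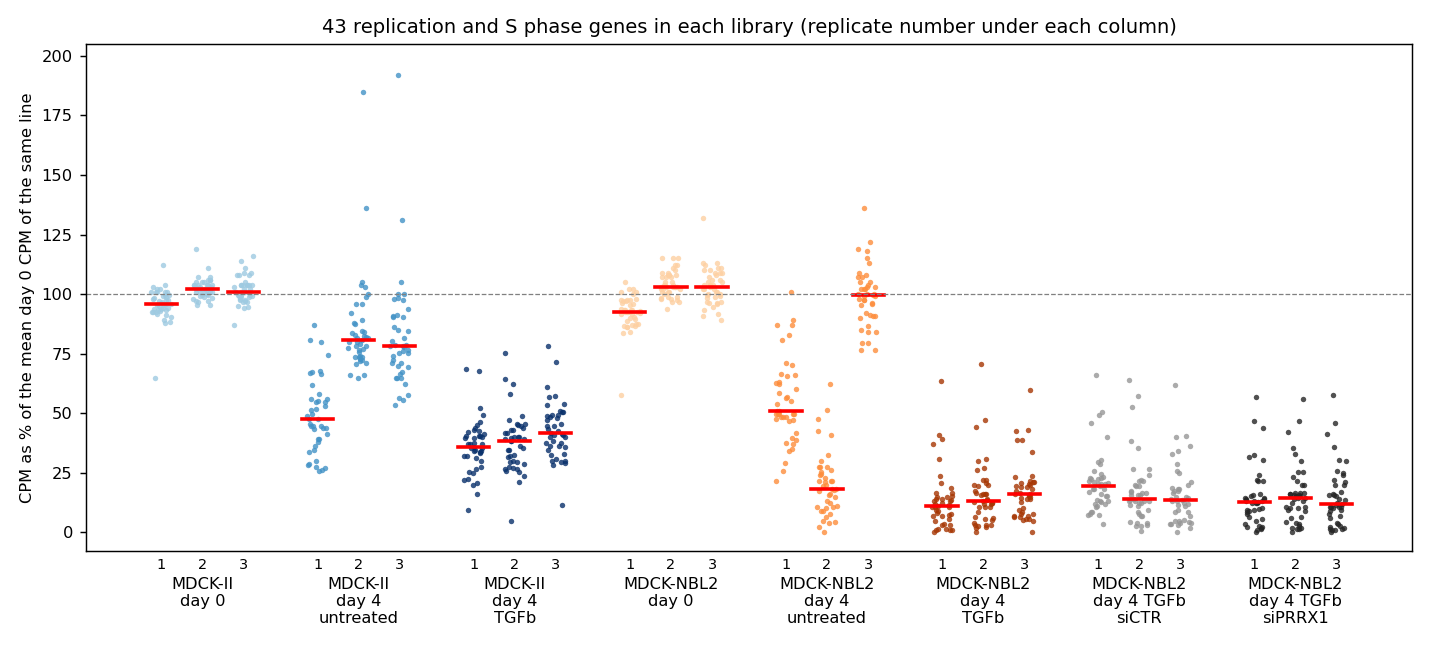
Each point is 1 of the 43 replication and S phase genes in 1 library, as CPM in percent of the mean day 0 CPM of the same line (y axis), with the 24 libraries along the x axis by group and replicate; red bars are medians. The medians lie between 35.9% and 41.6% in TGFb-treated MDCK-II and between 10.8% and 19.2% in the 9 TGFb-treated MDCK-NBL2 libraries, and untreated MDCK-NBL2 at day 4 spreads from 18.2% to 99.4%.

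Against untreated cells of the same day, TGFb lowered 37 of the 43 genes in MDCK-II (14.3% of all genes tested were lower) and 39 of 43 in MDCK-NBL2 (20.8% of all genes). The median log2 change of the 43 genes was -0.89 in MDCK-II and -2.19 in MDCK-NBL2, with all genes at -0.03 and -0.04. Without the MDCK-NBL2 library that stood apart, 42 of 43 were lower in that line (26.9% of all genes), with a median of -2.60. The counts by role below come from the same comparisons, so these shares over all genes stand beside them. In MDCK-II, 29 genes were lower in every treated library than in any untreated library, as were 19.5% of all genes tested; in MDCK-NBL2 these were 26 genes (21%), and 42 without the doubted library (30.4%). The count in MDCK-II was 11 when all 24 libraries shared 1 estimate of spread (9.27% of all genes), 24 without treated replicate 2 (8.05%) and 42 without untreated replicate 1 (21.7%). The count in MDCK-NBL2 was 1 when only its treated and untreated libraries entered the fit (1.93% of all genes).

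The loading factors, 10 genes for origin recognition and helicase loading, were all lower with TGFb than in untreated cells in both lines, with a median log2 change of -1.03 in MDCK-II and -2.87 in MDCK-NBL2 (-3.36 without the doubted library). ORC1, the largest ORC subunit, was at 93.3, 91.6 and 85.9 CPM in MDCK-II at day 0, at 23.2, 72.1 and 64.2 untreated at day 4 and at 20, 24.8 and 31.1 with TGFb. ORC1 in MDCK-NBL2 was at 65.4, 70.3 and 64.6 CPM at day 0, at 25.1, 2.62 and 60.6 untreated and at 0.767, 1.95 and 3.61 with TGFb. In both lines 1 untreated library lay within the range of the treated ones, replicate 1 in MDCK-II and replicate 2 in MDCK-NBL2. The log2 change of ORC1 with TGFb was -1.08 ± 0.34 in MDCK-II (edgeR quasi-likelihood adjusted p = 0.039) and -3.74 ± 0.88 in MDCK-NBL2 (adjusted p = 0.0057).

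MCM7, a helicase subunit, was at 125, 204 and 199 CPM in untreated MDCK-II at day 4 and at 103, 94 and 109 with TGFb. MCM7 in MDCK-NBL2 was at 177, 56.9 and 291 CPM untreated and at 31.1, 32.8 and 37.1 with TGFb. The groups did not overlap in either line, with log2 changes of -0.79 ± 0.17 (adjusted p = 0.0065) and -2.38 ± 0.41 (adjusted p = 0.0014). MCM3, another subunit, was at 128, 204 and 193 CPM untreated and at 92.1, 87.2 and 95 with TGFb in MDCK-II, a log2 change of -0.94 ± 0.16 (adjusted p = 0.0022). Among the MCM2-7 subunits the change from day 0 in MDCK-NBL2 ran from -2.64 ± 0.38 for MCM6 to -4.59 ± 0.74 for MCM5, and in MDCK-II from -1.20 ± 0.17 for MCM6 to -2.01 ± 0.29 for MCM5.

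CDC6, the ATPase that brings MCM2-7 to ORC, was at 129, 153 and 130 CPM in MDCK-II at day 0, at 92.7, 254 and 263 untreated at day 4 and at 56.9, 62.2 and 67.4 with TGFb. Replicates 2 and 3 of the untreated cells were thus above every day 0 library, and the treated cells below every other library of the line. CDC6 in MDCK-NBL2 was at 91.9, 94.8 and 96.8 CPM at day 0, at 82.3, 9.46 and 97.2 untreated and at 2.69, 4.99 and 5.26 with TGFb. Its log2 change with TGFb against untreated cells was -1.71 ± 0.32 in MDCK-II (adjusted p = 0.0035) and -3.83 ± 0.65 in MDCK-NBL2 (adjusted p = 0.0013; -4.34 ± 0.23 without the doubted library).

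**Figure D2:**
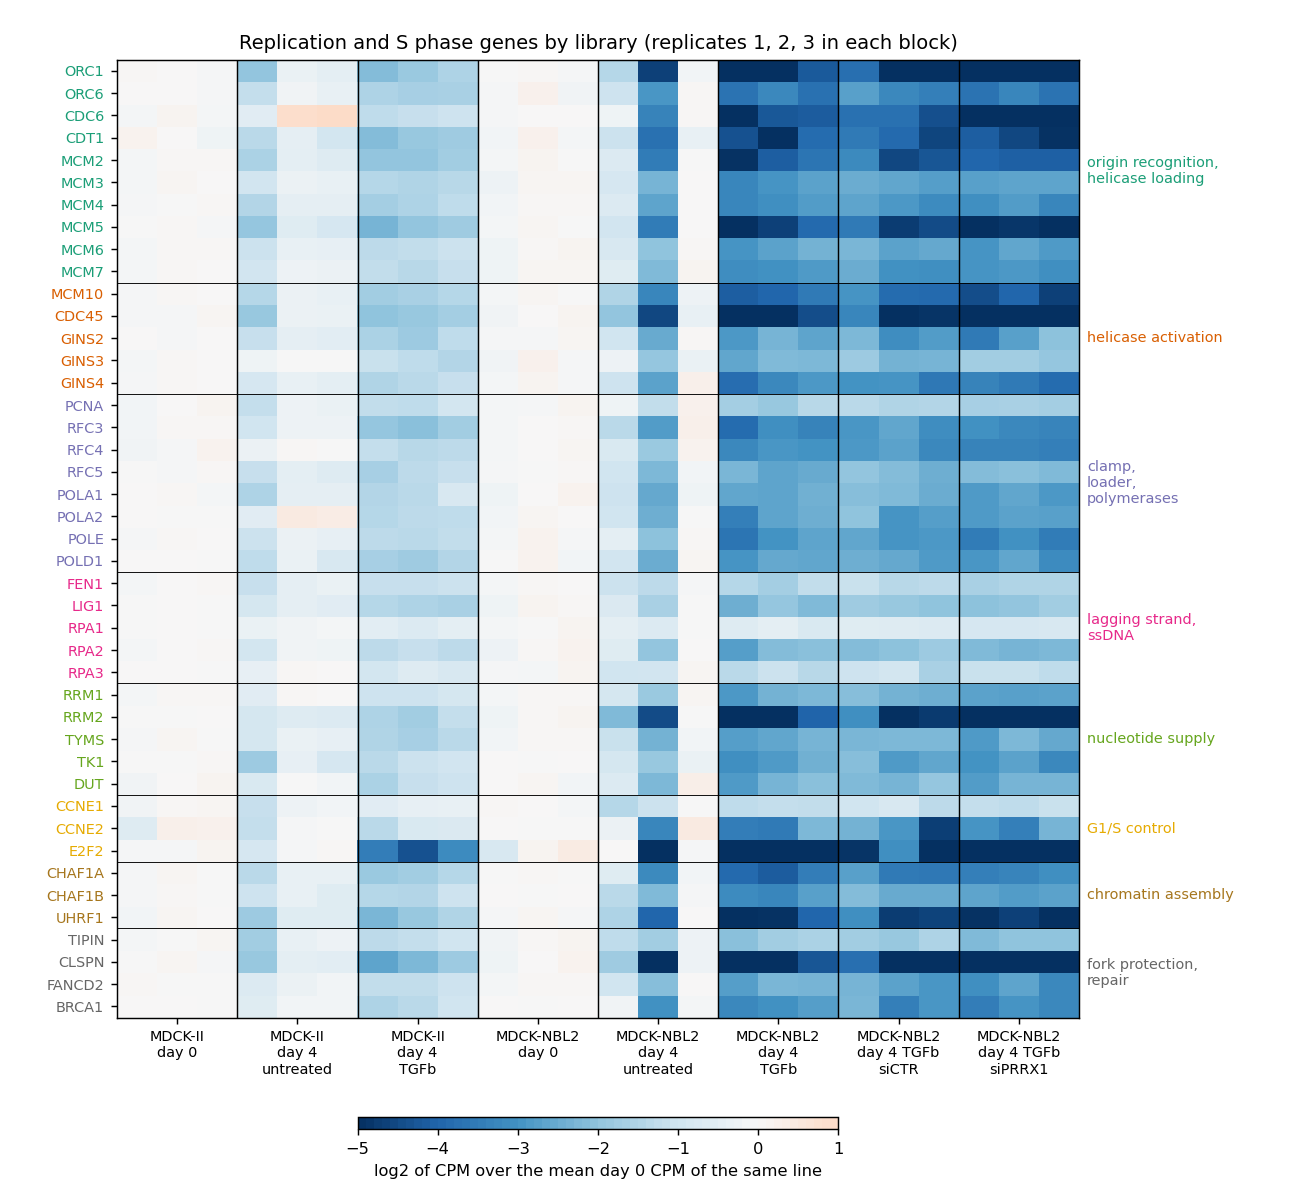
Rows are the 43 genes in 8 roles and columns the 24 libraries (replicates 1, 2 and 3 in each block); color is the log2 of CPM over the mean day 0 CPM of the same line, and values below -5, 0 counts included, are drawn at -5. In the 9 TGFb-treated MDCK-NBL2 libraries CDC45, CLSPN, ORC1, RRM2, MCM5 and UHRF1, from several roles, are among the darkest. RPA1, RPA3 and CCNE1 stay pale there, and untreated MDCK-NBL2 replicate 2 is dark across most rows.

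The helicase activators MCM10, CDC45, GINS2, GINS3 and GINS4 were lower with TGFb in 5 of 5 cases in both lines (medians -0.99 and -2.50). The MDCK-NBL2 median was -2.95 without the doubted library. CDC45, which joins the helicase at the moment of firing, was at 15.9, 48 and 46.1 CPM untreated and at 14.4, 15.8 and 18 with TGFb in MDCK-II. CDC45 in MDCK-NBL2 was at 43.8, 49.6 and 53.5 CPM at day 0, at 12.6, 2.11 and 37.4 untreated and at 0.384, 0.853 and 2.25 with TGFb. The treated MDCK-NBL2 mean was 2.38% of the day 0 mean, the lowest share among the genes with any count there, and the log2 change from day 0 was -5.35 ± 0.93 (adjusted p = 0.00058). MCM10, which helps the helicase to fire, was at 94.8, 109 and 101 CPM at day 0 and at 5.76, 6.46 and 8.72 with TGFb in MDCK-NBL2, a log2 change of -3.86 ± 0.58 (adjusted p = 0.00031).

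The GINS subunits had smaller changes from day 0 in MDCK-NBL2, from -2.33 ± 0.36 for GINS3 to -3.23 ± 0.55 for GINS4. GINS2 was at 10.8, 10.7 and 11.9 CPM at day 0 and at 1.53, 2.19 and 1.8 with TGFb in MDCK-NBL2, a log2 change of -2.57 ± 0.55 (adjusted p = 0.0019). GINS3 gave the smallest adjusted p of the activators in MDCK-II: 32.3, 37.1 and 36.5 CPM untreated against 34.9, 38.8 and 37.7 at day 0, and 17.2, 15.4 and 13.5 with TGFb (log2 change -1.19 ± 0.12, adjusted p = 9.7e-05). GINS3 thus stayed near its day 0 level over 4 days without TGFb in that line, and its treated libraries lay below all others.

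Of the clamp, its loader and the polymerases, 6 of 8 genes were lower with TGFb against untreated cells in MDCK-II and 8 of 8 in MDCK-NBL2 (medians -0.81 and -1.90). The MDCK-NBL2 median was -2.32 without the doubted library. RFC4, a subunit of the complex that opens PCNA onto DNA, was at 50.5, 65.5 and 61.2 CPM untreated and at 27.5, 23.8 and 25 with TGFb in MDCK-II. RFC4 in MDCK-NBL2 was at 51.3, 55.9 and 59.4 CPM at day 0, at 32.4, 15.2 and 62.8 untreated and at 5.95, 7.43 and 6.91 with TGFb. Its treated libraries lay below every untreated library in both lines, with log2 changes of -1.22 ± 0.13 (adjusted p = 0.00016) and -2.42 ± 0.38 (adjusted p = 0.00097). RFC4 was the single gene of the 39 that kept its call in MDCK-NBL2 under every setting tried.

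PCNA had the smallest log2 change of these 8 genes in MDCK-NBL2. It was at 118, 123 and 142 CPM at day 0, at 111, 54.3 and 147 untreated at day 4 and at 39.3, 34.4 and 49.3 with TGFb in MDCK-NBL2 (log2 change against untreated -1.34 ± 0.26, adjusted p = 0.0025). In MDCK-II it was at 72, 80.2 and 87.2 CPM at day 0, at 35, 66.1 and 62.8 untreated and at 34.3, 33.2 and 42.6 with TGFb. Untreated replicate 1 lay among the treated libraries, and the change of -0.58 ± 0.22 did not pass (adjusted p = 0.07), while the change from day 0 did (-1.12 ± 0.22, adjusted p = 0.0028). POLA1, the catalytic subunit of the polymerase that makes primers, was at 62.7, 132 and 135 CPM untreated and at 65.5, 71.8 and 105 with TGFb in MDCK-II, where the groups overlapped (-0.45 ± 0.27, adjusted p = 0.24). POLD1, the catalytic subunit of polymerase delta, was at 64.6, 73.9 and 59.9 CPM at day 0 and at 8.63, 11.3 and 11 with TGFb in MDCK-NBL2, a log2 change of -2.67 ± 0.46 (adjusted p = 0.00054).

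Of the genes for the lagging strand and for single-stranded DNA, 5 of 5 were lower than in untreated cells in MDCK-II and 3 of 5 in MDCK-NBL2, with medians of -0.68 and -0.73. Without the doubted library 5 of 5 were lower in MDCK-NBL2, with a median of -0.95. LIG1, the ligase that joins Okazaki fragments, was at 113, 115 and 112 CPM at day 0, at 62.2, 83.5 and 76.3 untreated and at 41.9, 39.4 and 37.4 with TGFb in MDCK-II. Those 3 groups did not overlap, and LIG1 changed by -0.62 ± 0.11 from day 0 to untreated day 4 (adjusted p = 0.0083) and by a further -0.90 ± 0.11 with TGFb (adjusted p = 0.00042). LIG1 in MDCK-NBL2 was at 79.9, 99.5 and 94.9 CPM at day 0 and at 16.9, 23.8 and 19.8 with TGFb, a log2 change of -2.18 ± 0.30 (adjusted p = 0.00021). FEN1, the nuclease that trims the fragments, was at 24.8, 40.3 and 43.7 CPM untreated and at 24.6, 24.5 and 26.2 with TGFb in MDCK-II, a change of -0.53 ± 0.18 that just passed (adjusted p = 0.049).

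RPA1, the large subunit of the complex that coats single-stranded DNA, had the smallest log2 change from day 0 of the 43 genes in TGFb-treated MDCK-NBL2. It was at 161, 165 and 162 CPM at day 0, at 130, 142 and 153 untreated and at 112, 101 and 116 with TGFb in MDCK-II. In MDCK-NBL2 it was at 122, 127 and 142 CPM at day 0, at 92.8, 81.1 and 129 untreated and at 82.9, 91.8 and 77.7 with TGFb, below every MDCK-II library of the same stage. It kept 67.3% and 64.6% of its day 0 mean with TGFb in the 2 lines, with log2 changes from day 0 of -0.57 ± 0.09 (adjusted p = 0.0011) and -0.63 ± 0.15 (adjusted p = 0.0031). Its partners in the complex kept 57.8% and 41.7% (RPA3) or changed by -1.24 ± 0.18 and -2.30 ± 0.38 on the log2 scale (RPA2).

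The nucleotide supply genes were lower with TGFb against untreated cells in 4 of 5 cases in MDCK-II and 5 of 5 in MDCK-NBL2 (medians -0.83 and -1.81). The MDCK-NBL2 median was -2.16 without the doubted library. RRM2, the S phase subunit of ribonucleotide reductase, was at 454, 458 and 465 CPM at day 0, at 252, 297 and 286 untreated and at 156, 137 and 199 with TGFb in MDCK-II. RRM2 in MDCK-NBL2 was at 343, 412 and 440 CPM at day 0, at 86.3, 18.2 and 388 untreated and at 4.41, 9.74 and 25.1 with TGFb. RRM2 thus ended at 35.7% and 3.29% of day 0 in the 2 lines, with log2 changes of -1.49 ± 0.14 (adjusted p = 7.3e-05) and -4.91 ± 0.98 (adjusted p = 0.0013). RRM1, the other subunit, changed from day 0 by -0.98 ± 0.15 in MDCK-II and by -2.46 ± 0.36 in MDCK-NBL2.

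TK1, the thymidine salvage kinase, was the 1 gene of this group that did not pass against untreated cells in MDCK-II. It was at 61.8, 165 and 122 CPM untreated and at 86.1, 103 and 112 with TGFb there (-0.22 ± 0.28, adjusted p = 0.61), with the treated libraries inside the untreated range. TK1 in MDCK-NBL2 was at 204, 201 and 206 CPM at day 0, at 110, 55.4 and 162 untreated and at 24.7, 28.3 and 38.3 with TGFb, with no overlap and a change against untreated cells of -1.84 ± 0.32 (adjusted p = 0.0015). TYMS, thymidylate synthase, was at 79, 116 and 109 CPM untreated and at 51, 46.1 and 57.7 with TGFb in MDCK-II, a log2 change of -0.98 ± 0.15 (adjusted p = 0.0011).

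Of the G1/S control genes, 1 of 3 was lower with TGFb against untreated cells in each line (medians -0.57 and -2.50). These were E2F2 in MDCK-II and CCNE2 in MDCK-NBL2. Without the doubted library 2 of 3 were lower in MDCK-NBL2, with a median of -3.04. The cyclin gene CCNE1 was at 16.3, 19.2 and 19.9 CPM at day 0, at 8.21, 15.6 and 16.9 untreated and at 12.5, 13.9 and 14.4 with TGFb in MDCK-II. The treated libraries lay within the untreated range (0.01 ± 0.23, adjusted p = 0.99). CCNE1 in MDCK-NBL2 was at 22.6, 21.9 and 20.1 CPM at day 0, at 7.96, 10.2 and 21.1 untreated and at 8.82, 9.5 and 9.17 with TGFb. Its change from day 0 passed (log2 change -1.23 ± 0.28, adjusted p = 0.0029). The treated libraries again lay within the untreated range, and CCNE1 was not called against untreated cells. CCNE2, the second cyclin E gene, changed from day 0 by -0.91 ± 0.35 in MDCK-II (adjusted p = 0.062) and by -2.94 ± 0.76 in MDCK-NBL2 (adjusted p = 0.006). E2F2, an activator of S phase genes, was at 1.66, 2.85 and 3.12 CPM untreated and at 0.271, 0.146 and 0.335 with TGFb in MDCK-II, 10 counts in all, with a log2 change of -3.48 ± 0.41 (adjusted p = 0.00027). In MDCK-NBL2 it was at 0.762, 1.45 and 1.75 CPM at day 0, from 68 counts, and had no count in the 3 treated libraries. E2F2 was thus at least 8.73-fold lower there, taking a floor of 3 counts over the group (adjusted p = 0.028), and the bound covers counting error only.

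The chromatin genes were lower with TGFb in 3 of 3 cases in both lines (medians -0.95 and -2.96, the latter -3.45 without the doubted library). UHRF1, which carries DNA methylation through replication, was at 222, 246 and 222 CPM at day 0, at 78.3, 14.6 and 234 untreated and at 6.91, 7.43 and 14.9 with TGFb in MDCK-NBL2, a log2 change from day 0 of -4.56 ± 0.80 (adjusted p = 0.00063). CHAF1B, a subunit of the histone chaperone CAF-1, was at 32.8, 31.7 and 32.6 CPM at day 0 and at 3.65, 3.41 and 4.96 with TGFb in that line (-3.01 ± 0.42, adjusted p = 0.00022). CHAF1A, its partner, was at 47.2, 94.1 and 93.7 CPM untreated and at 33, 35.7 and 45.2 with TGFb in MDCK-II (-1.05 ± 0.24, adjusted p = 0.0088). The groups of these 3 changes did not overlap, whereas for UHRF1 treated and untreated libraries overlapped in both lines.

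Of the fork protection and repair genes, CLSPN, which couples the fork to the checkpoint kinase CHK1, was at 65.7, 77.5 and 86 CPM at day 0, at 22.3, 1.66 and 64.7 untreated and at 0.767, 1.71 and 3.91 with TGFb in MDCK-NBL2. The doubted library lay within the treated range, and the log2 change from day 0 was -5.13 ± 1.06 (adjusted p = 0.0016). TIPIN, which stabilises stalled forks, was at 26.9, 69.9 and 75.9 CPM untreated and at 36.4, 39.2 and 45.2 with TGFb in MDCK-II, where it did not pass (-0.52 ± 0.30, adjusted p = 0.23), and changed by -0.82 ± 0.29 in MDCK-NBL2 (adjusted p = 0.038). BRCA1, a recombination repair gene, was at 47.7, 66 and 64.9 CPM untreated and at 24.7, 28.5 and 36 with TGFb in MDCK-II, with no overlap (-1.01 ± 0.16, adjusted p = 0.0014). FANCD2, of the crosslink repair pathway, changed by -0.81 ± 0.13 in MDCK-II (adjusted p = 0.0019) and by -1.62 ± 0.39 in MDCK-NBL2 (adjusted p = 0.0067).

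**Figure D3:**
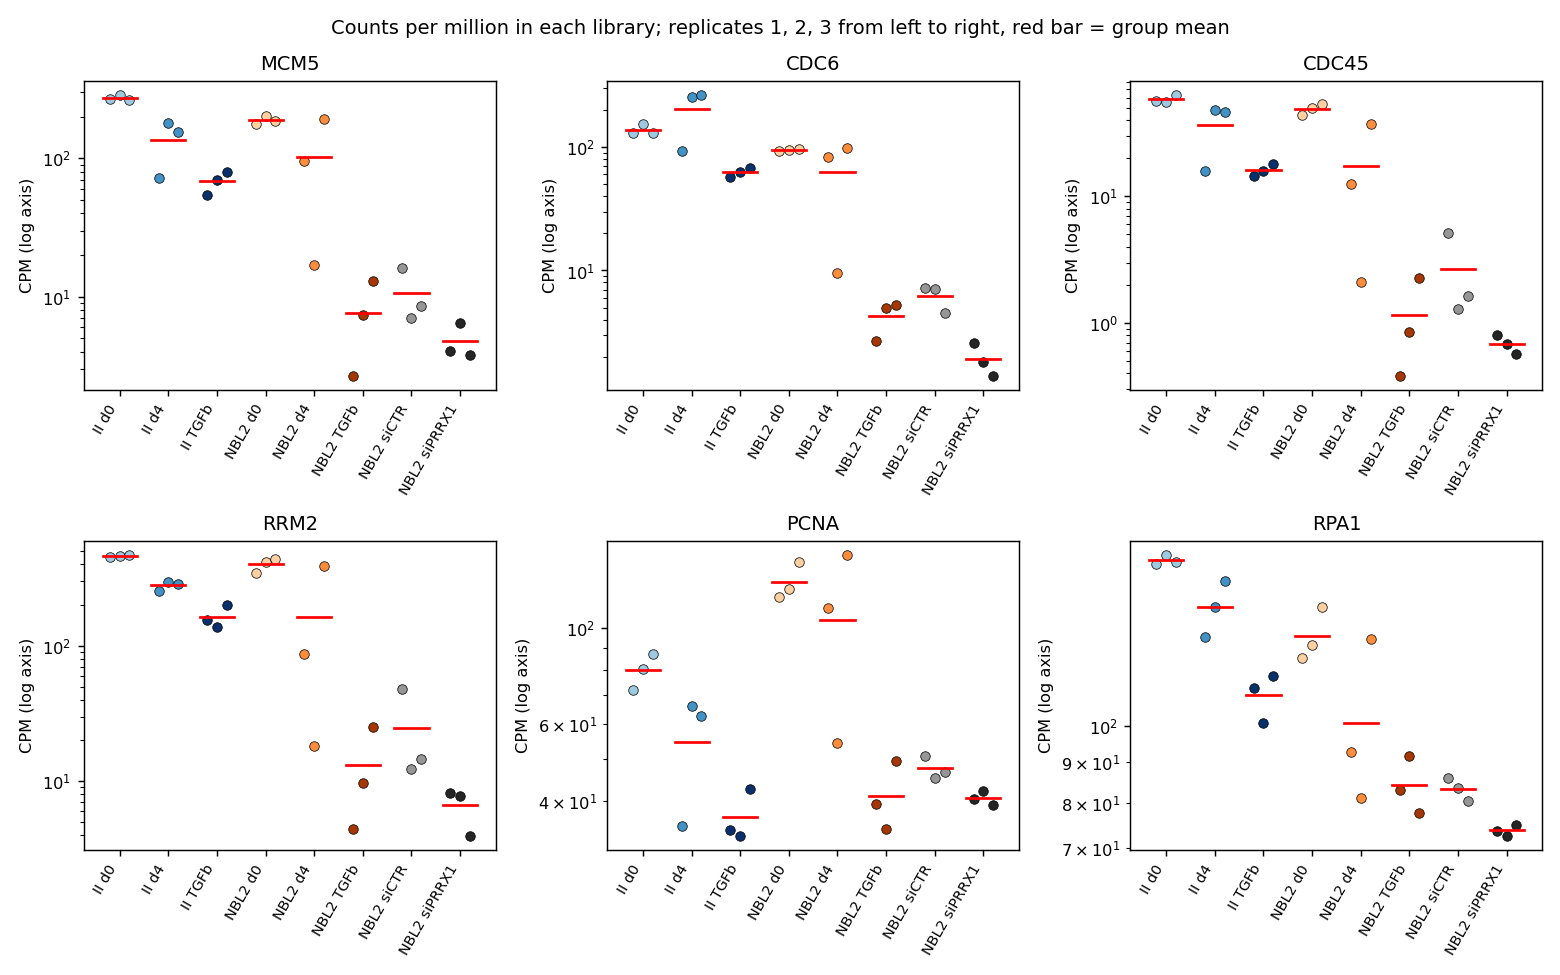
CPM of MCM5, CDC6, CDC45, RRM2, PCNA and RPA1 (y axis, log scale, a range of its own for each gene) in each of the 24 libraries, by group on the x axis with replicates 1, 2 and 3 from left to right; red bars are group means, and the siCTR and siPRRX1 cells were also treated with TGFb. CDC6 in MDCK-II stands at 254 and 263 in untreated replicates 2 and 3, RRM2 in MDCK-NBL2 drops from 343 to 440 at day 0 to 4.41 to 25.1 with TGFb, and RPA1 stays between 72.6 and 165 in all libraries.

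The difference between the lines in their response to TGFb was tested as an interaction, MDCK-NBL2 minus MDCK-II, on all 24 libraries. With untreated day 4 as the reference, 2 of the 43 genes passed (3.18% of all genes tested were lower), POLE at -1.71 ± 0.48 (adjusted p = 0.044) and TK1 at -1.62 ± 0.45 (adjusted p = 0.043). The median of the 43 differences was -1.32, against -0.05 over all genes. The 2 calls were lost (0 genes) without any 1 of 9 of the 12 libraries of the groups compared, where 1.4% to 5.41% of all genes were lower. Without the doubted library 35 of 43 passed (11.3% of all genes), all with the larger fall in MDCK-NBL2 and with a median of -1.71. Examples are POLE at -2.10 ± 0.32 (adjusted p = 0.00021), CDC6 at -2.63 ± 0.44 (adjusted p = 0.0005) and BRCA1 at -1.83 ± 0.30 (adjusted p = 0.00045). The 8 that did not pass were GINS2, POLA2, FEN1, RPA1, RPA3, CCNE1, E2F2 and TIPIN.

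With day 0 as the reference, which does not use the doubted library's level, 10 genes passed, all with the larger fall in MDCK-NBL2 (3.12% of all genes were lower). They were CDC6 (-3.28 ± 0.77, adjusted p = 0.016), RFC4 (-1.73 ± 0.43, adjusted p = 0.024), POLE, MCM7, TK1, RRM1, CHAF1B, MCM10, RRM2 and CDC45. The difference was -0.06 ± 0.18 for RPA1 and -0.52 ± 0.37 for PCNA, neither of which passed (adjusted p = 0.89 and 0.41). With the doubted library also left out of the estimate of spread, 34 genes passed (7.21% of all genes).

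The 43 genes stood in a similar but not the same order in the 2 lines. Across 42 of them, without E2F2, the log2 change from day 0 to TGFb at day 4 had a Pearson correlation of 0.80 and a Spearman correlation of 0.74 between lines. The lines share no library but were counted against the same gene models, and genes are not independent replicates. The median remaining level was 40% of day 0 in MDCK-II and 13% in MDCK-NBL2. The share left was lower in MDCK-NBL2 for each of the 42 genes other than E2F2. E2F2, with no count in treated MDCK-NBL2, was at least 8.73-fold lower there and 11.8-fold lower in MDCK-II, so its order between the lines is not known. CLSPN (21.8% and 2.78%), MCM5 (24.9% and 4.07%), CDT1 (26.2% and 4.99%), MCM2 (26.9% and 5.63%), CDC45 (27.4% and 2.38%) and UHRF1 (27.6% and 4.24%) were low in both. At the other end were RPA1, RPA3 and CCNE1, which kept 73.5% and 42.6%. CDC6 had 45.3% left in MDCK-II, rank 35 of 43 when the log2 changes are ordered from the lowest, and 4.56% in MDCK-NBL2, rank 8. LIG1 moved the other way, from rank 15 in MDCK-II to rank 37 in MDCK-NBL2.

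**Figure D4:**
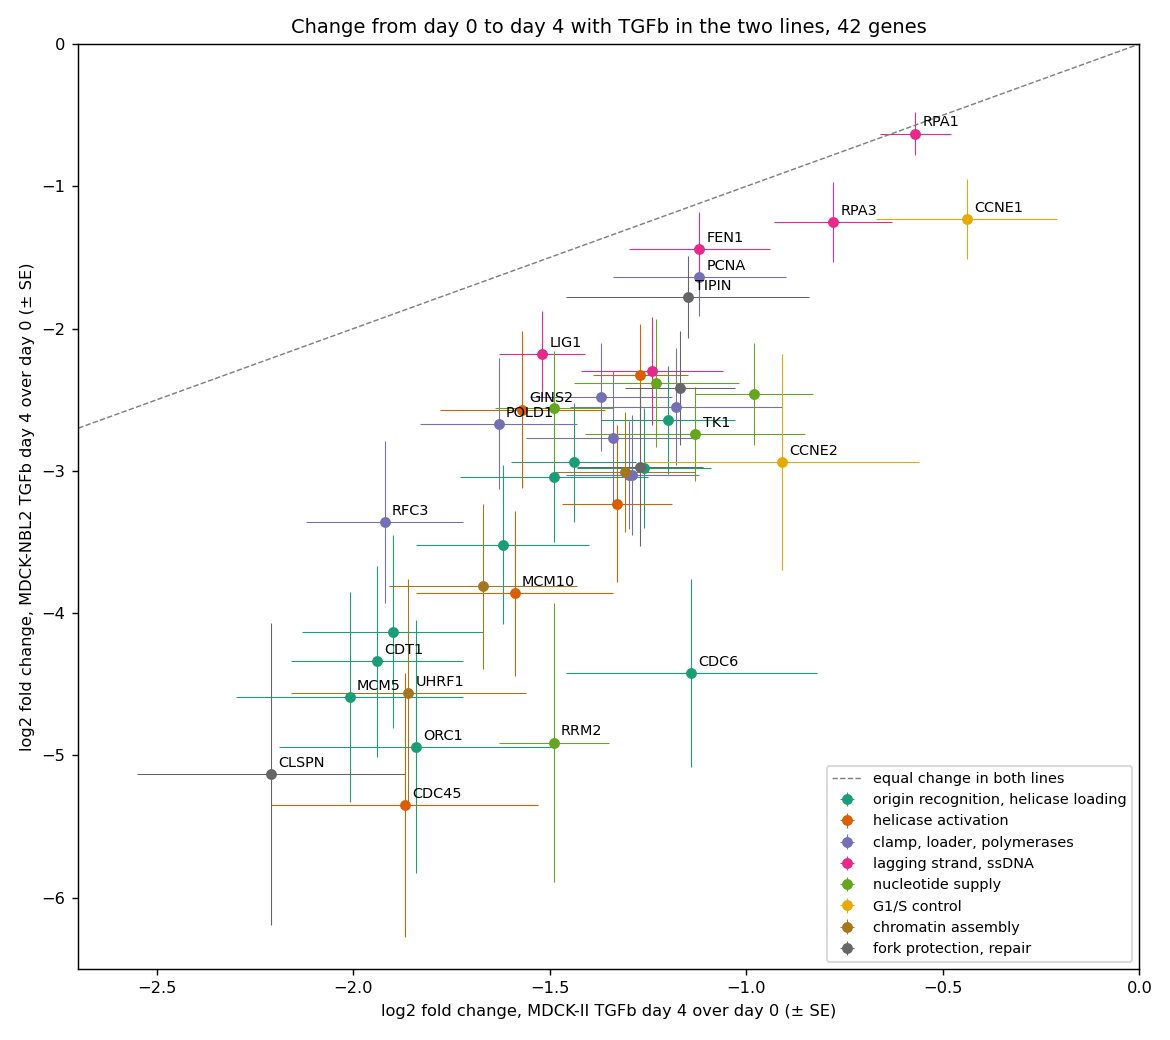
Log2 fold change from day 0 to day 4 with TGFb in MDCK-II (x axis) and MDCK-NBL2 (y axis), each ± SE, for 42 genes colored by role; the dashed line marks equal change in both lines, and E2F2 is left out because it had no count in treated MDCK-NBL2. The points lie below the dashed line, RPA1 on it within its SE, CDC45 lowest at -5.35, and CDC6 and RRM2 sit far below the trend of the others at their MDCK-II values of -1.14 and -1.49.

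At day 0, before treatment, MDCK-NBL2 was lower than MDCK-II in 2 of the 43, RFC5 (-1.30 ± 0.30, adjusted p = 0.0025) and POLA1 (-1.22 ± 0.36, adjusted p = 0.015), where 13.8% of all genes were lower, and the median log2 difference was -0.23. The 3 MDCK-NBL2 libraries nonetheless lay below the 3 MDCK-II libraries for 28 genes (30.3% of all genes) and above them for 5 (25.4%). RFC5, a clamp loader subunit, was at 88.4, 86.5 and 92 CPM in MDCK-II and at 35, 35.6 and 37.6 in MDCK-NBL2 at day 0. PCNA went the other way, at 0.68 ± 0.26, and passed without the doubted library (adjusted p = 0.052 with it and 0.0066 without), when 1 gene was higher (17.1% of all genes) and 6 were lower (17%). When only the day 0 libraries entered the fit, 22 genes differed, with PCNA and TYMS higher (20.4% of all genes) and 20 lower (22.7%).

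Untreated at day 4, PCNA was higher in MDCK-NBL2 (0.93 ± 0.26, adjusted p = 0.0079; 21% of all genes were higher) and 7 genes were lower (15.3% of all genes): CDC6, GINS3, RFC5, POLA1, POLA2, RPA1 and RPA2. CDC6 stood at -1.70 ± 0.50 (adjusted p = 0.011) and RFC5 at -1.51 ± 0.31 (adjusted p = 0.00064). The count of lower genes was 6 without the doubted library, when POLA2 no longer passed (15.7% of all genes), and 32 without MDCK-NBL2 replicate 3, when PCNA no longer passed (22.3%). With TGFb, 35 of 43 were lower in MDCK-NBL2 than in MDCK-II (22.3% of all genes) and none was higher (23.7% of all genes), with a median log2 difference of -1.79, and 39 were lower without the doubted library (24.8%). The 8 that did not pass were PCNA, FEN1, RPA3, TYMS, CCNE1, CCNE2, E2F2 and TIPIN, and PCNA stood at 0.16 ± 0.26 (adjusted p = 0.64). The 3 MDCK-NBL2 libraries lay below the 3 MDCK-II libraries for 42 genes, as they did for 31.2% of all genes.

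Culture to day 4 without TGFb lowered 12 of the 43 genes in MDCK-II (7.06% of all genes were lower) and raised none (7.66% were higher), with a median log2 change of -0.56. The 12 were CDT1, MCM2, MCM5, MCM6, GINS4, RFC5, POLE, POLD1, LIG1, RRM2, TYMS and CHAF1B, from -0.52 ± 0.14 for TYMS to -1.02 ± 0.28 for MCM5. Untreated replicate 1 was the lowest of its group in 43 of 43 genes, as it was in 44.7% of all genes. Without it 21 genes were lower (10.5% of all genes) and CDC6 (0.91 ± 0.10, adjusted p = 0.00025) and POLA2 (0.42 ± 0.08, adjusted p = 0.0042) were higher (9.25% of all genes). POLA2, the polymerase alpha accessory subunit, was at 105, 102 and 104 CPM at day 0 and at 69.8, 141 and 136 untreated at day 4. Without any 1 of the day 0 libraries 2 genes were lower (1.76% to 2.77% of all genes), and 5 without untreated replicate 3 (4.01%).

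In untreated MDCK-NBL2 the 3 replicates lay far apart. Between day 0 and day 4 only TIPIN was lower, at -0.96 ± 0.28 (adjusted p = 0.047), where 2.35% of all genes were lower, and the median of the 43 was -0.78 (-0.38 without the doubted library, replicate 2). Replicate 3 was at 99.4% of day 0 for the median gene and replicate 2 at 18.2%. The 3 libraries stood in the order of replicate 3, 1 and 2, from high to low, for 39 of the 43 genes, an order found in 19.6% of all genes. Replicate 2 lay above the 3 libraries treated with TGFb alone for 27 of the 43 genes (37% of all genes) and above all 9 TGFb-treated libraries of the line for 14 (23.6%). The count of lower genes was 37 without replicate 3 (16.9% of all genes). It was 0 without replicate 1 (0.481%), without replicate 2 (4.03%) or without any 1 of the day 0 libraries (0% to 0.273%).

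With siPRRX1, replication genes stayed low in TGFb-treated MDCK-NBL2. Compared with day 0, 43 of 43 were lower with siPRRX1 and TGFb (24% of all genes), with a median log2 change of -2.94. The median gene stood at 12.5%, 14.3% and 11.9% of day 0 in the 3 siPRRX1 libraries and at 19.2%, 14% and 13.5% in the 3 siCTR libraries. The siCTR cells and the TGFb-treated cells without siRNA differed in 0 of the 43 genes and in 0 of all genes tested by edgeR, with 0 of the 43 at an unadjusted p under 0.05. Of the 43 log2 differences, siCTR minus no siRNA, 3 were negative, and the median was 0.28 against 0.01 over all genes. By group means, the median gene kept 15.7% of day 0 with siCTR, and 13% both with siPRRX1 and with TGFb alone. The siCTR group was thus the higher of the 3 for the median gene, and the reason was not tested.

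Directly compared, siPRRX1 and siCTR differed in 0 of the 43 genes by edgeR's quasi-likelihood test (0.545% of all genes were lower) and in 0 by DESeq2 (1.72%). At an unadjusted p under 0.05 there was 1 gene, CDC6. Of the 43 differences 40 were negative, with a median of -0.32 against 0.00 over all genes, and 16 genes were lower in every siPRRX1 library than in any siCTR library, as were 16.4% of all genes. CDC6 was at 7.16, 7.03 and 4.53 CPM with siCTR and at 2.57, 1.81 and 1.41 with siPRRX1, without overlap, a log2 difference of -1.63 ± 0.68 (adjusted p = 0.34). It passed without the doubted library of the untreated group (-1.62 ± 0.25, adjusted p = 0.004; 2.28% of all genes were lower), which leaves the values compared as they are and changes the spread of the line's fit.

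RRM2 was at 47.6, 12.3 and 14.6 CPM with siCTR and at 8.23, 7.8 and 3.96 with siPRRX1 (-1.91 ± 0.90, adjusted p = 0.41). CDC45 was at 5.12, 1.28 and 1.62 CPM with siCTR and at 0.807, 0.678 and 0.565 with siPRRX1 (-2.08 ± 0.98, adjusted p = 0.40). Both were without overlap, and in both siCTR replicate 1 was the highest library by far, as it was the highest of its group in 33 of the 43 genes and in 39.8% of all genes. MCM7, MCM3 and LIG1 differed by less than their SE, at -0.13 ± 0.39, -0.06 ± 0.39 and -0.03 ± 0.29.

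Same-numbered siCTR and siPRRX1 libraries deviated together. When only these 6 libraries were fitted, 3 genes were lower, CDC6 (-1.63 ± 0.28, adjusted p = 0.011), RRM1 (-0.40 ± 0.10, adjusted p = 0.044) and RRM2 (-1.93 ± 0.50, adjusted p = 0.048), as were 5.46% of all genes. With the replicate number added as a block, 10 were lower (11.4% of all genes): CDC6, MCM5, MCM10, CDC45, POLA1, POLE, RRM1, RRM2, UHRF1 and TIPIN, with CDC6 at -1.65 ± 0.23 (adjusted p = 0.0011) and RRM2 at -1.89 ± 0.29 (adjusted p = 0.0019). Replicate 1 of both groups carries another library number series than replicates 2 and 3, so series and replicate cannot be told apart there. The series of those replicates 2 and 3 also holds replicate 1 of MDCK-NBL2 with TGFb alone, and no untreated or MDCK-II library. That TGFb library was the lowest of its group in 32 of the 43 genes and in 38.9% of all genes. With a term for the series, TGFb lowered 37 genes against untreated MDCK-NBL2 (19.4% of all genes) and 42 against day 0 (23.8%).

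**Figure D5:**
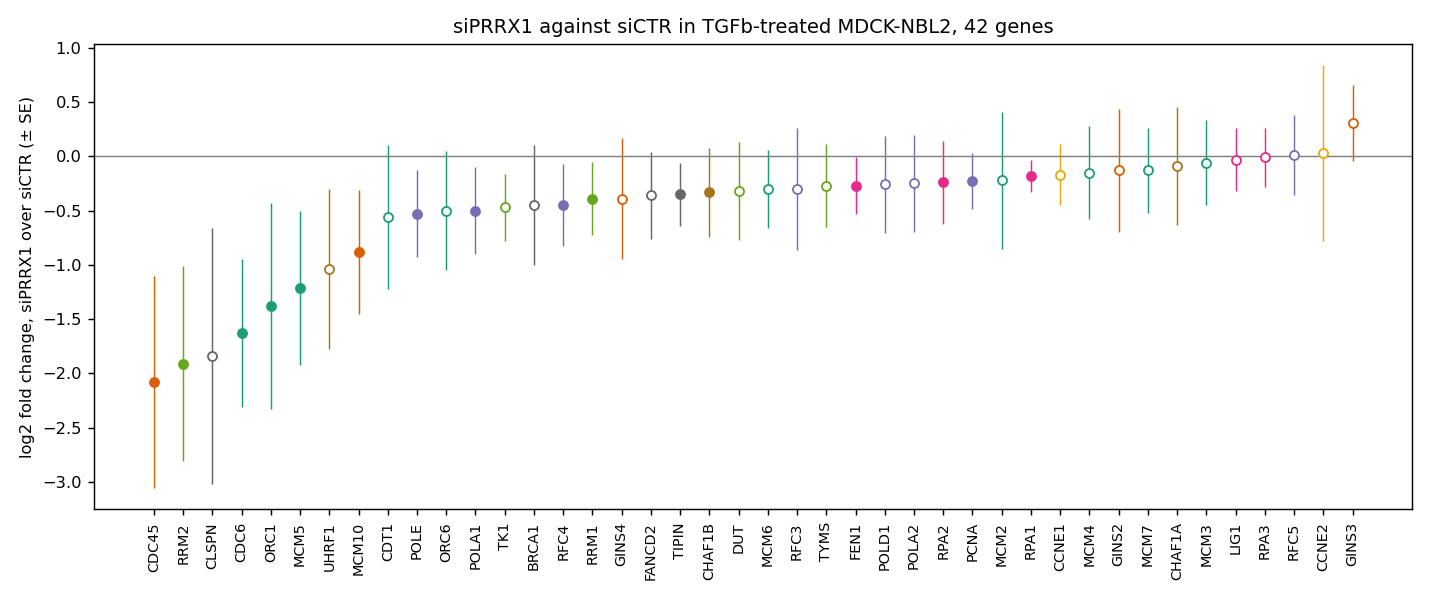
Log2 fold change of siPRRX1 over siCTR in TGFb-treated MDCK-NBL2 (y axis, ± SE from the fit of the line's 15 libraries) for 42 genes in order along the x axis, colored by role, E2F2 left out for its counts of 0 and 2; filled points mark genes whose 3 libraries do not overlap between the groups. Values run from -2.08 for CDC45 to 0.31 for GINS3, and the 8 lowest, CDC45 to MCM10, lie at or below -0.88.

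Of 39 other replication and S phase genes tested, 31 were lower with TGFb against untreated cells in MDCK-II (median -0.76), where 14.3% of all genes were lower. In MDCK-NBL2 32 were lower (median -1.39), where 20.8% of all genes were. The medians over all genes were -0.03 and -0.04. RFC2, a clamp loader subunit not among the 43, changed by -0.75 in MDCK-II, and RNASEH2A, which removes RNA from DNA, by -1.52 in MDCK-NBL2. BARD1, the partner of BRCA1, changed by -1.30 and -3.16 in the 2 lines.

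Of 26 other regulators of the G1/S transition tested, 1 was higher and 10 were lower in MDCK-II, where 15.2% of all genes were higher and 14.3% lower, and 1 was higher and 14 were lower in MDCK-NBL2, where 18.4% were higher and 20.8% lower. The higher gene was CDKN1A, the CDK inhibitor p21, in both. It was at 153, 356 and 303 CPM untreated and at 836, 953 and 1100 with TGFb in MDCK-II (1.83 ± 0.26, adjusted p = 0.00092). In MDCK-NBL2 it was at 588, 1540 and 280 CPM untreated and at 2910, 1900 and 2340 with TGFb (1.57 ± 0.45, adjusted p = 0.015; 2.45 ± 0.32 and adjusted p = 4e-05 without the doubted library), and the doubted library again lay nearest to the treated ones. Of 8 G2 and mitosis genes, 7 were lower in MDCK-II and 8 in MDCK-NBL2, among them MKI67, the proliferation marker, by -1.17 ± 0.18 (adjusted p = 0.0012) and -4.50 ± 0.87 (adjusted p = 0.0023). Their summed CPM was 1360 to 2060 at day 0 and 39.7 to 108 with TGFb in MDCK-NBL2.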

How the data were processed

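The authors deposited 1 table of raw whole-number counts, with a row per dog gene and a column per library, not normalized. Per the submitters' processing notes STAR 2.5.3a, RSEM 1.3.0, FastQC and the build CanFam3.1 were used; the sources used here give neither their roles nor the annotation, the strand setting or the handling of reads from near-identical gene copies, so a gene with such copies is less certain. RNA was extracted with an illustra RNAspin kit and made into stranded mRNA libraries, per the labels' protocols. The printed TGFb dose has a doubtful unit and is left out.

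The quasi-likelihood F test of edgeR 4.0.16 (R 4.3.3) was run on the counts after TMM scaling and filterByExpr (minimum count 10, minimum total 15), which kept 12466 of 32704 genes. MDCK-II comparisons were fitted on the 9 libraries of that line (6 residual degrees of freedom, biological coefficient of variation 17.2%), MDCK-NBL2 comparisons on its 15 (10 degrees of freedom, 24.5%, and 18% without the library that stood apart), and comparisons of lines on all 24 (16 degrees of freedom, 21.9%, and 17.7% without it). P-values were adjusted over the 12466 genes by the Benjamini-Hochberg method, with 0.05 as the threshold. The SE is the log2 change over the square root of F, CPM is the count over the TMM-scaled library size in units of 1e+06, and the prior count was 0.125. The procedure was checked on simulated counts. With 0 counts in a group the fold is a bound against 3 counts over the group; with E2F2 at this bound, or left out, no median of the 43 genes moved by more than 0.09 on the log2 scale. The precision of low genes is limited by depths of 6134929 to 27567296 counts.

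The 43 genes, the other lists and the comparisons were chosen with earlier results of these data known. Values per library are given for the gene of each role with the smallest and the largest adjusted p in TGFb-treated MDCK-NBL2 against day 0 and in MDCK-II against untreated cells, for PCNA, CDC6 and POLA2, and for genes a result turned on, RFC5, RRM2 and MCM5 among them; other genes come from the lists, with PRRX1, MKI67, TGFBI and CDH16 as checks. For 1 gene of the list of other replication genes the result is not reported here, while the counts and medians of that list include it. The settings tried were no filter, the Wald test of DESeq2 1.42.0, edgeR with that tool's size factors, a replicate block, 1 fit of all libraries, only the groups compared, a term for the library number series, and each library left out in turn. Day 0 as the reference for the difference of responses, the block with only the groups compared, and the comparisons of siCTR with no siRNA and of siPRRX1 with day 0 were added after the data were seen.

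The labels give all groups the same replicate numbers. Same-numbered libraries deviated together, with a correlation over 0.1 in all 3 pairs, for TGFb-treated and untreated MDCK-II (0.421, 0.251 and 0.295) and for siPRRX1 and siCTR (0.343, 0.189 and 0.164), so the numbers were taken to pair these libraries and no others.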

Additional observations from a re-analysis of the deposited data

Results flagged for a closer look

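The log2 change of 2 of the 43 genes with TGFb, against untreated cells of day 4, differed between the lines by a test of the difference itself, where 3.18% of all genes tested had a lower value in MDCK-NBL2. Neither passed under every setting: both were lost with the library series term, with only the groups compared and without any 1 of 9 libraries. POLE, the catalytic subunit of polymerase epsilon, was at 78.3, 132 and 123 CPM untreated and at 65.7, 65.3 and 70.1 with TGFb in MDCK-II, and at 101, 34.6 and 152 untreated and at 11.3, 18.3 and 22.8 with TGFb in MDCK-NBL2. Its difference, MDCK-NBL2 minus MDCK-II, was -1.71 ± 0.48 on the log2 scale (edgeR quasi-likelihood adjusted p = 0.044), and -2.10 ± 0.32 without the library that stood apart (adjusted p = 0.00021). TK1, which did not pass in MDCK-II alone (-0.22 ± 0.28, adjusted p = 0.61), differed by -1.62 ± 0.45 (adjusted p = 0.043), and by -1.94 ± 0.39 without that library (adjusted p = 0.0019). With day 0 as the reference POLE differed by -1.74 ± 0.48 (adjusted p = 0.037) and TK1 by -1.62 ± 0.45 (adjusted p = 0.039).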

How the results depend on the processing

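No called gene changed sign under the settings tried, though several settings called 0 genes and, in untreated MDCK-II against day 0, leaving out untreated replicate 1 gave 2 higher genes where there were 0. Counts that moved by over 1.5 times are given by setting, and the cause was not tested. The share of all genes called lower stands in brackets. With 1 fit of all 24 libraries, TGFb against untreated MDCK-II gave 11 genes (9.27%). In that fit untreated cells against day 0 gave 0 in MDCK-II (4.05%) and 6 in MDCK-NBL2 (5.26%). With only the groups compared, which leaves fewer libraries, TGFb against untreated MDCK-NBL2 gave 1 (1.93%), the difference of responses 0 (0.233%) and siPRRX1 against siCTR 3 (5.46%). Untreated against day 0 then gave 4 in MDCK-II (3.77%) and 0 in MDCK-NBL2 (0%). The lines differed in 22 at day 0, 20 lower (22.7%) and 2 higher (20.4% of all genes were higher). Untreated at day 4 they differed in 0 (4.15% lower, 5.79% higher). The DESeq2 Wald test gave 11 for the difference of responses (5.98%) and, for untreated cells against day 0, 21 in MDCK-II (10.8%) and 2 in MDCK-NBL2 (5.21%). The library series term gave 0 for the difference of responses (2.9%) and 0 for untreated MDCK-NBL2 against day 0 (1.76%). Without the library that stood apart these were 35 (11.3%) and 0 (4.03%), with 1 for siPRRX1 against siCTR (2.28%). The lines at day 0 then gave 7, 6 lower (17%) and 1 higher (17.1% of all genes were higher). Day 0 as the reference gave 10 for the difference of responses (3.12%).

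Leaving out each library in turn gave these counts, with the range of the share of all genes called lower in brackets. TGFb against untreated cells gave 24 to 42 genes in MDCK-II (8.05% to 21.7%) and 34 to 42 in MDCK-NBL2 (14.7% to 26.9%). The difference gave 0 to 35 (1.4% to 11.3%) and siPRRX1 against siCTR 0 (0.0882% to 0.249%). Untreated cells against day 0 gave 2 to 23 in MDCK-II (1.76% to 10.5%) and 0 to 37 in MDCK-NBL2 (0% to 16.9%). For TGFb against day 0 the counts were 40 to 42 in MDCK-II (14.3% to 17.4%) and 42 to 43 in MDCK-NBL2 (20.6% to 23.2%). The lines differed in 1 to 2 at day 0 (9.71% to 11.9%), 6 to 32 untreated (12.4% to 22.3%) and 32 to 34 treated (17.7% to 19.5%). Of the genes called, 10 of 37 in MDCK-II and 1 of 39 in MDCK-NBL2 passed under every setting for TGFb against untreated cells, and 39 of 41 and 42 of 43 for TGFb against day 0. The share of all genes that kept a call under every setting is not given, so these counts have no background beside them.

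With the replicate number as a block, siPRRX1 against siCTR gave 0 genes in the fit of the line (0.537% of all genes were lower). It gave 10 with only the groups compared (11.4%), where the pairs deviated together. For TGFb against untreated MDCK-II the paired counts were 38 (15.1%) and 36 (12.5%). In comparisons whose libraries share only a number, the block gave 22 for untreated MDCK-II against day 0 (9.35%). For the lines at day 0 it gave 4, 3 lower (14.6%) and 1 higher (15.2% of all genes were higher). The block moved no other count by over 1.5 times.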
